A study of Mus musculus with 30 samples.

Results

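Cdh6 encodes cadherin 6, a transmembrane protein of the type II classical cadherins, and is 1 of the 56484 genes listed in a Geo-seq table of the E12 mouse presumptive retinal pigmented epithelium (pRPE) and optic stalk (OS). The gene was chosen by its levels in the same libraries that are described here, where it was higher in the OS than in the pRPE, so its levels are given as a description and no test between groups was run on it. Geo-seq cuts a small area out of a cryosection by laser capture microdissection, amplifies its cDNA and sequences it, and its place in the tissue stays known. All 30 libraries were of E12 control embryos, littermates without the Dct-Cre transgene that drives the deletions in the mutants of the study, from lines kept on a C57Bl6/J background. They came from 10 regions, 4 of the pRPE (14 libraries) and 6 of the OS (16 libraries), named by dorsal or ventral side and by distal, middle or proximal position, with middle sections in the OS alone. Regions were cut by position from Cresyl Violet-stained sections, and neither their cell number nor the embryo of each library is given in the labels. The methods name fewer control embryos than libraries, so some libraries share an embryo. P-values over libraries treat them as independent, may be too small and cannot be taken at face value.

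Classical cadherins join neighbouring cells through calcium-dependent binding of their extracellular repeats, and their cytoplasmic tails bind p120 and beta-catenin, which link them through alpha-catenin to actin. Members bind best to their own kind or to close relatives, so tissues with different cadherins tend to keep apart during morphogenesis. Cdh6 is known from the developing kidney, the neural crest and subsets of retinal ganglion cells, where it takes part in the choice of axon targets.

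In the GENCODE M21 annotation of GRCm38, the build named by the authors, Cdh6 lies on the minus strand of chromosome 15 from 13028701 to 13173675. Its longer transcript has 12 exons and 8167 spliced bases, and the shorter one has 4 exons and 1795 bases. No other GENCODE gene overlaps it, and neither of the 2 RefSeq genes inside it is listed in the table. The 89.6% of listed symbols found in these annotations hold no other gene in its span, and the positions of the rest were not looked up. The 250 bases before its start site, at chr15:13173676-13173925 on the minus strand, are printed from RefSeq (GRCm38.p6) because they adjoin the start of the gene described. The capitals mark a pair of overlapping GC boxes.

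Cdh6 promoter: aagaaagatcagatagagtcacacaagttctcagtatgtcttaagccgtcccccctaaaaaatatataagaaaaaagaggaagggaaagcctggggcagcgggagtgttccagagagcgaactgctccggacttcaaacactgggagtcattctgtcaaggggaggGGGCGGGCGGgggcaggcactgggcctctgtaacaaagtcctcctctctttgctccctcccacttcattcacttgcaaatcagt

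The letters GGGCGG, searched on both strands, occur 2 times in overlap, 80 and 84 bases before the start, and 32.7% of 32851 RefSeq promoters of the same table hold them. A CCAAT box, searched as these letters, was not found in this window, while 33.8% of the promoters hold one. A TATA box, searched as TATAAA, was not found either, and 12.4% hold one. The E-box CACGTG was also not found, and 6.02% hold it. The GC content of the window was 51.2%, against a median of 52.4% over all promoters. These matches describe letters and were not set against any readout of the libraries.

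Values are estimated read counts per gene, scaled to counts per 1000000 of the TMM-adjusted library size (CPM). Total counts per library ranged from 1421918 to 6041021 (median 2602532), and between 1730 and 9886 genes had a count (median 4299). Mitochondrial genes held 30.38% to 55.42% of the counts. In the 8337 genes with more than 10 counts in at least 3 libraries, 56.8% of the values were 0, the median of the others was 86 counts, and 15.2% of the others were 10 counts or fewer. A value of 0 says only that no read was counted under a symbol. The widely used gene Ctnnb1 had a count in 1 library, and the sources used here do not say how reads that map to several places were counted or whether counts were filtered, so a CPM is a share of the counts listed. The defining pigment genes Dct, Tyr and Tyrp1 had no count in any library, and the stalk factor Pax2 had one in 12 of 16 OS and 2 of 14 pRPE libraries, so the labels are borne out by part of their markers only. Fewer cells of a type and less RNA per cell cannot be told apart in such captured areas.

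Cdh6 had a count in 25 of 30 libraries, from 48 to 6252 counts and 34330 in all. It was counted in 15 of 16 OS libraries and in 10 of 14 pRPE libraries. Per total count, the highest was a ventral proximal OS library, at 3194 CPM of the total count (95% Wilson interval 3116 to 3274), and the lowest of the 25 libraries with a count was a dorsal distal OS library, at 21.5 CPM (17.9 to 25.8). These intervals cover counting error only, since PCR copies are not independent molecules, and they are far narrower than the spread between libraries of one region.

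In the ventral OS, the underside of the stalk where the optic fissure lies, Cdh6 was high along the whole axis. The 3 ventral distal libraries held 1408, 215 and 866 CPM. The 4 ventral middle libraries held 1831, 1356, 0 and 1575 CPM, with 3 close to each other and 1 without a count, for which 3 counts would have been 1.13 CPM. The 2 ventral proximal libraries held 2977 and 613 CPM. Together the ventral OS reached 1204 ± 910 CPM (SD, n = 9), and 1355 ± 845 CPM (n = 8) without ventral middle replicate 3, the library at 0. That library was left out for its Cdh6 level.

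In the dorsal OS, the side that continues with the pRPE, Cdh6 varied widely between libraries, and the positions overlapped. The 2 dorsal proximal libraries held 1803 and 323 CPM, within the range of the ventral libraries. The 2 dorsal middle libraries held 51.6 and 71.1 CPM, below every ventral OS library with a count. The 3 dorsal distal libraries held 25.1, 645 and 168 CPM, with 1 inside the range of the ventral OS libraries with a count and 2 below it. The dorsal middle and distal libraries together reached 192 ± 259 CPM (n = 5), and 78.9 ± 62.3 CPM (n = 4) without dorsal distal replicate 2, the library at 645 CPM. That library was left out for its Cdh6 level.

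In the pRPE, the outer layer of the optic cup that becomes pigmented, Cdh6 was low or not counted. The 3 dorsal distal libraries held 172, 22.8 and 69.6 CPM. The 4 dorsal proximal libraries held 0, 0, 139 and 0 CPM, so that 1 of 4 had a count. For the 3 at 0, 3 counts would have been between 1.13 and 1.51 CPM. The 4 ventral distal libraries held 0, 30.8, 54.7 and 50.5 CPM, and 3 counts in the library at 0 would have been 1.39 CPM. The 3 ventral proximal libraries held 96.7, 162 and 100 CPM and had the lowest SD of log2 levels among the regions with 3 or more libraries (0.41), at 120 ± 36.4 CPM. No pRPE library exceeded 172 CPM.

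**Figure D1:**
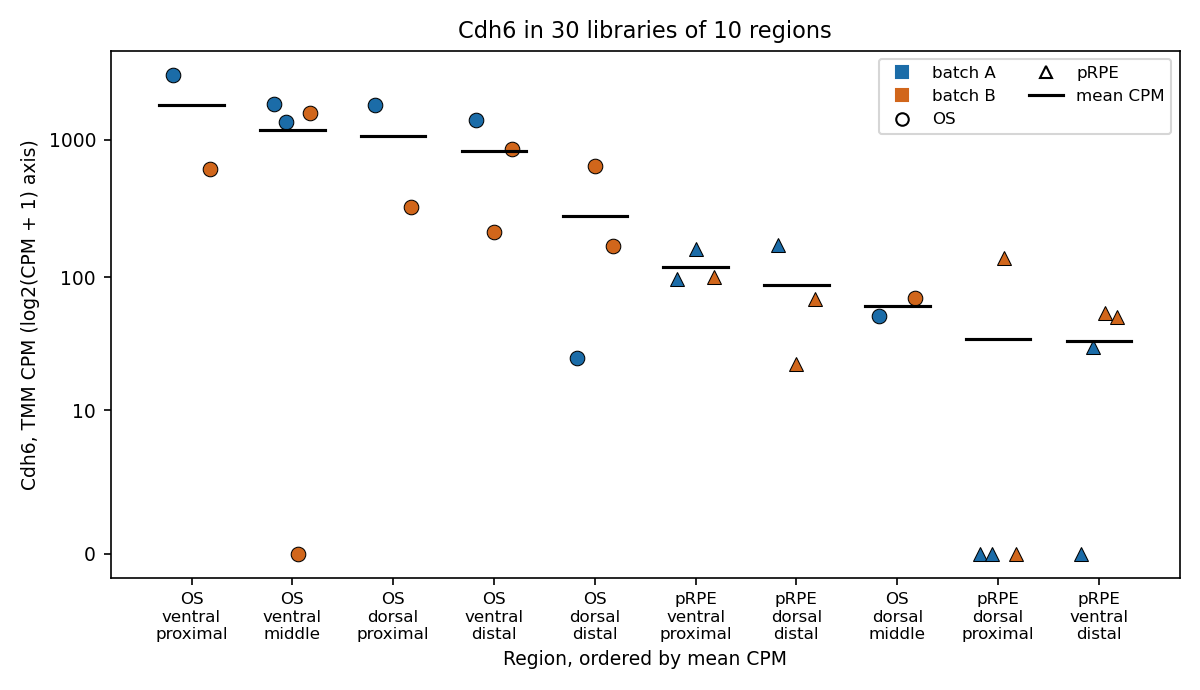
Cdh6 in each of the 30 libraries, as TMM CPM on a log2(CPM + 1) axis, by region in the order of the mean CPM (black lines). Circles are OS and triangles pRPE, blue is batch A and orange batch B; the 4 leftmost regions are ventral or dorsal proximal OS, and no pRPE library lies above 172 CPM.

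Ordered by mean, the regions ran from ventral proximal OS (1795 ± 1671 CPM, n = 2) through ventral middle OS (1190 ± 817, n = 4), dorsal proximal OS (1063 ± 1046, n = 2) and ventral distal OS (829 ± 597, n = 3) to dorsal distal OS (279 ± 324, n = 3). Below these came ventral proximal pRPE (120 ± 36.4, n = 3), dorsal distal pRPE (88 ± 76.1, n = 3), dorsal middle OS (61.3 ± 13.8, n = 2), dorsal proximal pRPE (34.8 ± 69.5, n = 4) and ventral distal pRPE (34 ± 24.9, n = 4). Every region overlapped its neighbour in this order, so the order of single regions is not settled by these libraries. The 4 regions with the highest means also held libraries at 0, 215, 323 and 613 CPM, below the 645 CPM of a dorsal distal OS library.

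Between tissues, Cdh6 averaged 64.1 ± 61.1 CPM in the pRPE (n = 14) and 870 ± 871 CPM in the OS (n = 16), a 13.6-fold ratio of means. On the log2(CPM + 1) scale, which understates changes of low values, pRPE minus OS was -3.87 (SE 1.11). Of the 16 OS libraries, 11 lay above every pRPE library, and the other 5 lay within the pRPE range. Over the 8337 genes the median of the same difference was 0.50 towards the pRPE, and Cdh6 had the lowest of all, which describes how it was picked. On the ventral side the ratio of OS to pRPE means was 17.0, with 1204 and 70.7 CPM. On the dorsal side it was 7.66, with 441 and 57.6 CPM, and 3 of the 7 dorsal OS libraries lay above every dorsal pRPE library. The dorsal medians were 168 and 22.8 CPM, and a dorsal proximal OS library at 1803 CPM raised the OS mean. Without the libraries ventral middle OS replicate 3 and dorsal distal OS replicate 2, pRPE minus OS was -4.39. Leaving out both was not planned, and they were picked by their Cdh6 levels, so this value is no support for the difference.

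Between the dorsal and ventral sides, Cdh6 averaged 249 ± 480 CPM (n = 14) and 708 ± 883 CPM (n = 16). Dorsal minus ventral was -1.80 on the log2 scale (SE 1.28), and within the OS it was -1.46 (SE 1.43), with 441 ± 638 CPM in 7 dorsal and 1204 ± 910 CPM in 9 ventral libraries. The OS libraries of the 2 sides overlapped over most of their range. Within the pRPE the means were 57.6 ± 71.8 CPM dorsally and 70.7 ± 53.3 CPM ventrally (n = 7 each), and dorsal minus ventral was -1.69 on the log2 scale (SE 1.62). A count was found there in 4 of 7 dorsal and 6 of 7 ventral libraries, and none of the 3 log2 differences exceeded the pooled SD of its libraries (3.50 over all libraries, 3.02 in either tissue). In the OS this depended on ventral middle replicate 3, the library at 0. Without that library, left out for its level, the ventral OS had a log2 mean of 10.08 (SD 1.16, n = 8). The dorsal OS had a log2 mean of 7.5 (SD 2.15, n = 7).

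Between distal and proximal positions the 2 scales went in opposite directions. Mean CPM was 287 ± 428 distally (n = 13) and 565 ± 956 proximally (n = 11), whereas the mean log2 level was higher distally by 0.31 (SE 1.49), since 3 of the 11 proximal libraries had no count. Within the OS, distal minus proximal was -1.75 (SE 1.12), with 554 ± 525 CPM in 6 distal and 1429 ± 1215 CPM in 4 proximal libraries. Within the pRPE it was 0.98 (SE 1.66), with 57.1 ± 55.4 and 71.1 ± 70.1 CPM (n = 7 each). None of these within-tissue differences exceeded the spread between libraries, which was 1.88 and 3.11 as a pooled SD of log2 levels.

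The grouping that the study drew from its own clustering of these libraries joins the dorsal proximal OS to the ventral OS, and the dorsal middle and distal OS to the pRPE. By these groups Cdh6 averaged 1179 ± 881 CPM in 11 libraries and 97.8 ± 145 CPM in 19, a 12.1-fold ratio of means and a log2 difference of 4.04 (SE 1.17). Of the 11 libraries, 7 lay above all of the other 19. Because the grouping was made on the same counts, this difference is a description as well.

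The labels name batches A and B, and each holds libraries of both tissues. In the OS, Cdh6 averaged 1350 ± 1043 CPM in batch A (n = 7) and 497 ± 498 CPM in batch B (n = 9). The pRPE means were 65.8 ± 76.9 and 62.5 ± 46.6 CPM (n = 7 each). In the ventral OS, 4 libraries of batch A held between 1356 and 2977 CPM and 5 of batch B between 0 and 1575 CPM. The OS was above the pRPE in both batches, with pRPE minus OS at -5.44 in batch A and -2.48 in batch B. Dorsal minus ventral was -3.00 and -0.81, with the same sign in both. Distal minus proximal was -0.53 and 0.78, with opposite signs.

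The library numbers in the sample names fall into 4 runs, called blocks here, each of which holds sections of several regions. Whether a block is an embryo is not given in the labels. The supplement describes sample metadata with a mouse ID, which were not among the sources used here. Within a block, 10 pairs of OS and pRPE sections share a side and a position, and Cdh6 was higher in the OS section in 9 of them. On the ventral side it was higher in 5 of 5 pairs, by 3.93-fold to 45.7-fold. On the dorsal side it was higher in 4 of 5, among them a proximal pair with 1803 CPM in the OS and no count in the pRPE. The exception was a distal pair with 25.1 CPM in the OS and 172 CPM in the pRPE. Ventral OS was above dorsal OS in 4 of 5 pairs of the same position, by ratios of 56.0, 26.3, 5.16 and 22.2. In the distal pair of block 3 the ratio was 0.333, with 215 CPM ventrally and 645 CPM dorsally. Ventral middle OS replicate 3, the ventral OS library without a Cdh6 count, had no partner section in its block and entered none of these pairs.

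**Figure D2:**
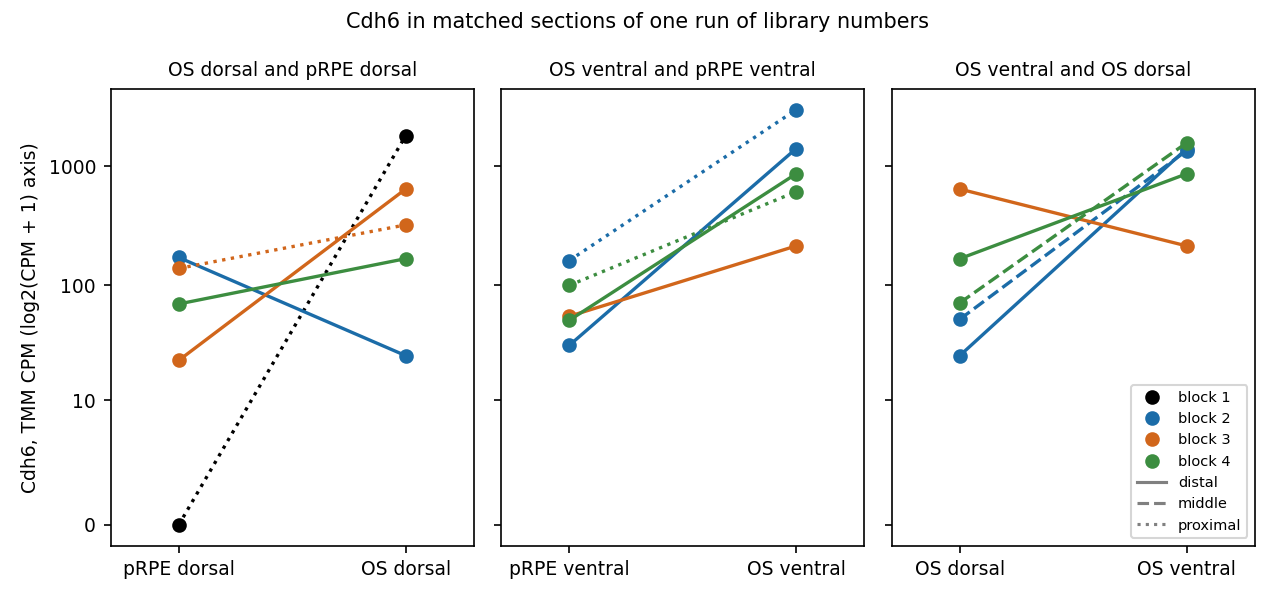
Cdh6 in pairs of sections that share a block of library numbers and a position, as TMM CPM on a log2(CPM + 1) axis; each line is a pair, the color is the block and the line style the position. The lines rise in 4 of 5 dorsal and 5 of 5 ventral pairs of pRPE and OS, and in 4 of 5 pairs of dorsal and ventral OS. The ventral OS library without a Cdh6 count is in no pair.

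Ventral middle OS replicate 3, of batch B and block 3, stood apart from its region in Cdh6. It had no Cdh6 count, against 1356 to 1831 CPM in the other 3 libraries of its region. The same library had the highest level of all 30 of Pax2, a transcription factor of the stalk, at 691 CPM, and of the stalk gene Zic4, at 181 CPM. It also held 1386 CPM of the pigment cell transporter Slc45a2, which had no count in the other 3, and 816 CPM of the collagen gene Col1a2 and 184 CPM of Pdgfra, both mesenchymal. Other genes of these lists were low or at 0 in it, with Mitf at 0, Gpnmb at 13.5 CPM and the collagen gene Col3a1 at 0, where the other 3 libraries reached 41.5, 11.2 and 4.77 CPM. Its summed level of 10 mesenchyme markers was 1001 CPM, the highest of the ventral OS, where the median was 41.7 CPM. Dorsal distal OS replicate 2, of the same batch and block, had the highest Cdh6 level of its region, 645 CPM against 25.1 and 168 CPM. On the log2 scale its 9.33 lay nearer to the 7.40 of replicate 3 than the 4.71 of replicate 1 did. All 3 dorsal distal libraries had no Pax2 count. The pigment gene Mitf was at 160 CPM in replicate 2, against 53.5 and 119 CPM in the other 2, Gpnmb at 832 CPM, against 171 and 341 CPM, and Slc45a2 at 1403 CPM, against 0 and 327 CPM. The part of other cells in either value was not tested.

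Across the groups, the summed levels of the marker lists moved beside Cdh6 as follows. The 10 pigment markers, 7 of which had a count in any library, summed to 174 to 2648 CPM in the pRPE, 118 to 2424 CPM in the dorsal OS and 0 to 1400 CPM in the ventral OS, with medians of 1039, 486 and 63.5 CPM. The 8 stalk markers, 7 of which had a count, summed to at most 42.6 CPM in the pRPE, 164 CPM in the dorsal OS and 872 CPM in the ventral OS, with medians of 0, 68.1 and 72.2 CPM. These markers did not go together. Pax2 (12 OS and 2 pRPE libraries), Zic4 (6 and 0) and Vax1 (1 and 0) leaned to the OS. Ntn1 (0 and 2), Vax2 (0 and 1) and Zic2 (0 and 1) were counted in the pRPE alone. Zic1 was counted in 5 of 7 dorsal OS, 0 of 9 ventral OS and 1 pRPE library. The 10 mesenchyme markers summed to 0 to 1111 CPM in the pRPE, 0 to 276 CPM in the dorsal OS and 0.298 to 1001 CPM in the ventral OS, with medians of 93.2, 45.6 and 41.7 CPM, and 5 of them, with Foxc1, Twist1, Prrx1 and Lum among them, had no count in any library. The highest ventral OS sums of all 3 lists came from ventral middle replicate 3, the library without a Cdh6 count. Among the retinal progenitor genes, Rax had a count in 6 pRPE and 0 OS libraries, at 18.1 ± 31.2 CPM in the pRPE, Sfrp2 in 1 pRPE library, and Six6 and Hes5 in none. Among the endothelial genes, Tek had a count in 22 libraries, reaching 306 CPM in the pRPE, 162 CPM in the dorsal OS and 614 CPM in the ventral OS, Pecam1 had one in 2, and Kdr, Emcn and Cldn5 in none. The 5 ganglion cell markers, 3 of which had a count, summed to at most 22.7, 87.3 and 32.5 CPM in the pRPE, dorsal OS and ventral OS. The 4 neural crest markers, 3 with a count, summed to at most 258, 347 and 155 CPM, and the 7 blood markers, 2 with a count, to at most 61.1, 66.5 and 40 CPM. Their part in the Cdh6 levels was not tested.

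The libraries without a Cdh6 count were not those with the fewest detected genes. Over the 30 libraries its log2 level and the log2 number of detected genes had r = -0.238 and rho = -0.171, against a median r of 0.357 over the 8337 genes, and 77 genes were at or below it. Leaving out the 2 libraries whose gene number lay furthest from the median, r was -0.131. It was -0.361 in batch A (n = 14), -0.165 in batch B (n = 16), -0.0636 in the OS (n = 16) and -0.0481 in the pRPE (n = 14), where rho was 0.104. In the ventral OS (n = 9) r was 0.17 and rho 0.1. The points share library, depth and normalization, and no test was made. The 5 libraries without a Cdh6 count had 3029 to 9886 detected genes (median 4285) and the 25 with one had 1730 to 9315 (median 4313). The shallowest library by genes, a ventral distal OS library with 1730, held 215 CPM of Cdh6, and the richest, a dorsal proximal pRPE library with 9886, held none. No library with more than 5250 detected genes exceeded 172 CPM. After the number of genes and the batch were removed by a linear fit, pRPE minus OS was -3.26, dorsal minus ventral -1.12 and distal minus proximal 0.02.

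**Figure D3:**
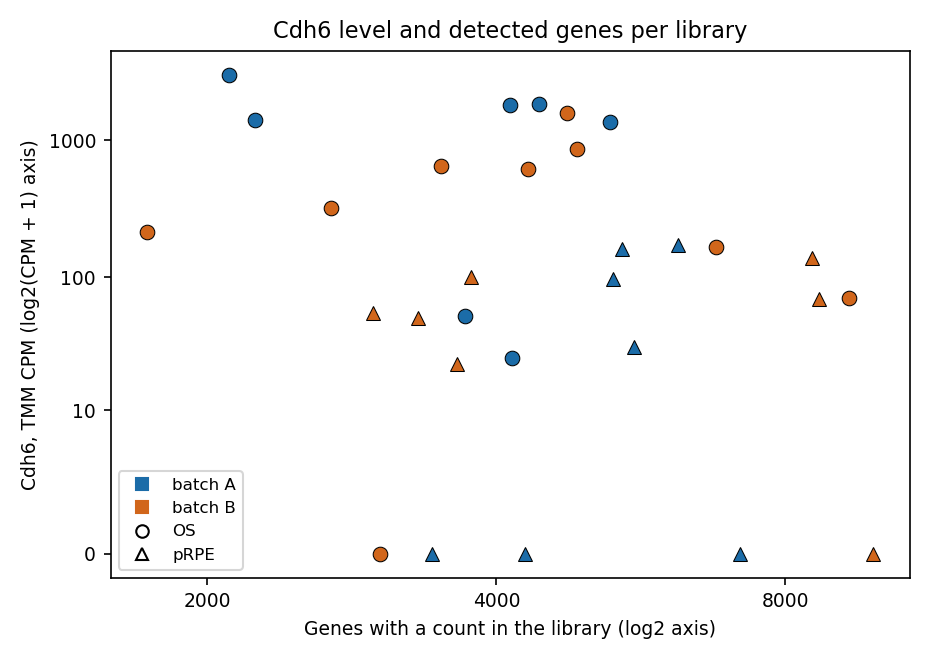
Cdh6 (TMM CPM, log2(CPM + 1) axis) against the number of genes with a count (log2 axis) in the 30 libraries; circles are OS, triangles pRPE, blue batch A and orange batch B. The 5 libraries at 0 lie between 3029 and 9886 genes, and the libraries with more than 5250 genes lie at or below 172 CPM.

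The other classical cadherins are given beside Cdh6 by the number of libraries with a count, because levels of different genes were not set per length. Of the 5 type I cadherins, Cdh3 (P-cadherin) had a count in all 30 libraries, at 289 ± 92.1 CPM in the pRPE and 249 ± 77.1 CPM in the OS. Cdh1 (E-cadherin) had one in 12 of 14 pRPE, 5 of 7 dorsal OS and 1 of 9 ventral OS libraries. Cdh2 (N-cadherin) had a count in 3 libraries, Cdh4 in 1 and Cdh15 in 0. Of the 12 other type II cadherins, 11 had a count in some library and 5 passed the filter. Cdh12 was counted in 10 of 14 pRPE and 4 of 16 OS libraries, and Cdh9, the next protein-coding gene on one side of Cdh6, in 8 of 14 and 2 of 16. Cdh10 was counted in 8 libraries, Cdh22 in 5 and Cdh24 in 3, all 3 of them pRPE. In the ventral OS, where 8 of 9 libraries had a Cdh6 count, no other type II cadherin had a count in more than 2 of 9.

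**Figure D4:**
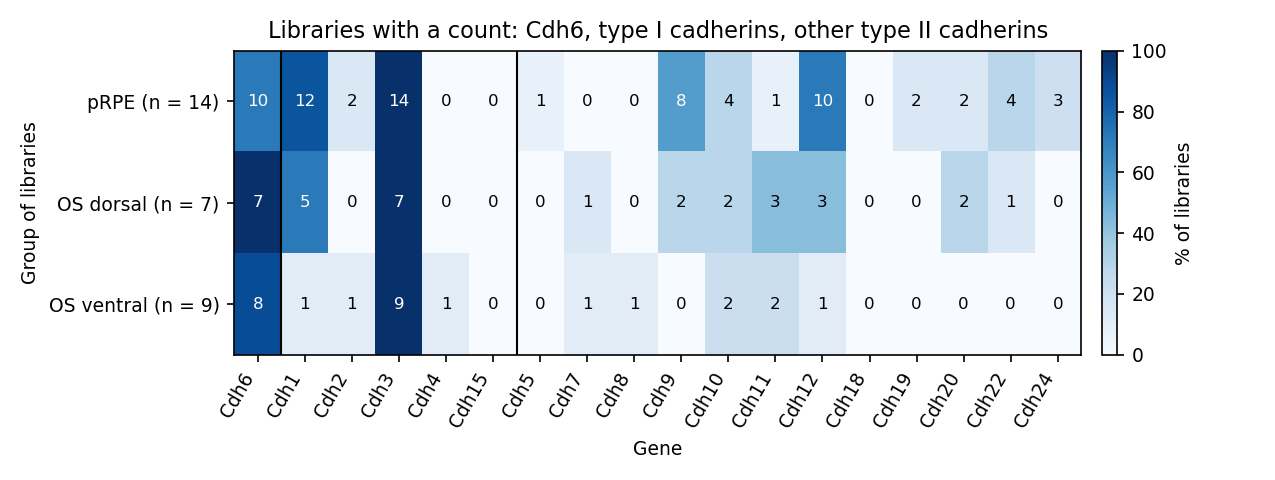
Number of libraries with a count for Cdh6, 5 type I cadherins and 12 other type II cadherins in the pRPE, dorsal OS and ventral OS; the shade is the percentage of the group's libraries. Cdh6 was counted in 10 of 14, 7 of 7 and 8 of 9 libraries, and Cdh3 in all.

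Other adhesion genes, many of them cadherins and not known partners of Cdh6, were tested in place of it by their RNA counts. The choice of Cdh6 did not rest on them, but the lists were chosen with earlier results of these data known. Of 66 adhesion genes in 5 lists (type I cadherins, other type II cadherins, catenins and adaptors, cleavage and turnover, other superfamily cadherins), 32 passed the filter and were tested in 1 edgeR quasi-likelihood fit with batch, tissue, side and position, with calls at a Benjamini-Hochberg adjusted p under 0.05 over all 8337 genes and a log2 fold change beyond 0.58. Between pRPE and OS, 0 of the 32 were called by edgeR, against 0.0240% of all genes called higher in the pRPE and 0.0120% lower, and 9 had an unadjusted p under 0.05, as had 20.6% of all genes. DESeq2 called 5 of the 32 and 14.9% of all genes, and limma on log2(CPM + 1) called 0 and 0.708%. Libraries share embryos that the labels do not name, so they are not independent. The p-values of this fit may be too small and cannot be taken at face value. The median log2 fold change of the 32 was 1.86 towards the pRPE, against 0.80 for all genes. The fitted change of the 5 tested type II cadherins was towards the pRPE. Cdh9, Cdh22 and Cdh24, with a count in 2, 1 and 0 OS libraries, could not have passed the filter without their pRPE libraries, so this is no support for a direction of the list. The members that did not pass the filter went both ways, with Cdh11 counted in 5 OS libraries and 1 pRPE library, Cdh7 in 2 and 0, Cdh8 in 1 and 0, Cdh20 in 2 and 2, Cdh19 in 0 and 2, and Cdh5 in 0 and 1. The CPM means of Cdh10 went the other way, at 7.34 ± 19.5 in the pRPE and 11.6 ± 37 in the OS. Cdh9 was at 43.6 ± 63.3 CPM in the pRPE and 1.33 ± 4.19 CPM in the OS, and its edgeR adjusted p was 0.0669 (0.000297 to 0.178 over the alternatives).

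Between the sides, 5 of the 32 were called by edgeR, all higher dorsally, beside 5.53% of all genes called higher dorsally and 0.228% called lower. In edgeR 11 of the 32 had an unadjusted p under 0.05, as had 21.7% of all genes. DESeq2 called 8 of the 32 and 16.9% of all genes. The median of the 32 was 1.91, against 0.94 for all genes. Cdh1 had a count in 12 of 14 dorsal and 6 of 16 ventral libraries, at 75.7 ± 70.0 and 20.4 ± 58.3 CPM, with a log2 fold change of 5.27 and an edgeR adjusted p of 0.0297. The atypical cadherin Fat2 had a count in 11 of 14 and 1 of 16, at 29.5 ± 36 and 1.55 ± 6.22 CPM (edgeR adjusted p = 0.0277). Celsr1, a planar polarity cadherin, had a count in 7 of 14 and 1 of 16, as had Pkp4, an armadillo protein of the p120 family, each with an edgeR adjusted p of 0.0277, though that of Pkp4 was 0.106 with DESeq2. Ctnna1, which encodes alpha-E-catenin, had a count in 4 of 14 dorsal and 0 of 16 ventral libraries, at 3.97 ± 8.85 CPM dorsally (edgeR adjusted p = 0.0289), but it passed the filter through its dorsal libraries alone, its adjusted p was 0.249 with DESeq2, and edgeR's own filter left it out. Fat2, Celsr1 and Pkp4, with 1 ventral library each, also passed through their dorsal libraries, so these calls are not support for a direction of the list. With the library block in place of batch, edgeR called Fat2 alone of the 32 (adjusted p = 0.0211) and 1.16% of all genes, and the adjusted p was 0.0548 for Cdh1, 0.0586 for Celsr1, 0.0712 for Ctnna1 and 0.0508 for Pkp4. With limma only Fat2 was called (adjusted p = 0.0384), beside 0.312% of all genes, Cdh1 had an adjusted p of 0.0533, and these p-values too are over libraries that share embryos. More genes were detected dorsally than ventrally, with medians of 5172 and 4299, and with the log2 number of detected genes in the edgeR model 0 of the 32 and 0.0600% of all genes were called. In that fit the log2 fold changes were 6.98 for Fat2, 5.94 for Ctnna1, 4.84 for Pkp4, 4.07 for Cdh1 and 2.06 for Celsr1, against 7.22, 5.76, 5.40, 5.27 and 8.26 without that term, with edgeR adjusted p-values from 0.071 to 0.979. The part of detection in these calls was not tested further.

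Between distal and proximal positions, 0 of the 32 were called by edgeR, beside 0% of all genes in either direction, and 7 had an unadjusted p under 0.05, as had 10.8% of all genes. DESeq2 called 4 of the 32 and 7.34% of all genes, and limma called 0 of the 32 and 0% of all genes. Among the partners that bind the tail of Cdh6, Ctnnb1 (beta-catenin) had a count in 1 library and Jup (plakoglobin) in 0. Ctnnd1 (p120-catenin) had one in 10 libraries, 6 of 14 pRPE and 4 of 16 OS, and its relative Ctnnd2 in 20. Vcl (vinculin) had a count in 14 of 14 pRPE and 11 of 16 OS libraries. A library without a count of such widely used genes does not show that they were absent. The same limit holds for the 5 libraries without a Cdh6 count. Of the proteases, Adam10 had a count in 3 libraries.

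By the Pearson correlation of log2(CPM + 1) over the 30 libraries, the 5 genes most like Cdh6 among 4480 with a count in at least 10 libraries were Gm44822 (r = 0.552), Gm56299 (0.551), Or56b2 (0.545), Fzd8 (0.497) and Gm10323 (0.496). The median r was -0.0675 and the lowest -0.662. Fzd8, a Wnt receptor, had a count in 9 of 9 ventral OS libraries at 425 ± 330 CPM, 3 of 7 dorsal OS libraries at 45.9 ± 78.8 CPM and 6 of 14 pRPE libraries at 22.9 ± 37.1 CPM. It was thus counted in the ventral middle OS library that had no Cdh6. Gm44822 was counted in 9 of 9, 7 of 7 and 12 of 14 libraries, at 43.0 ± 36.7, 5.34 ± 4.52 and 1.32 ± 1.23 CPM. By Spearman's rho 2 of these 5 remained among the top 5, and with detected genes and batch removed 1 did. The points share library and depth, and nothing about shared function follows from likeness.

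The nearest genes on chromosome 15 did not share the pattern of Cdh6. Drosha, a microRNA-processing nuclease 93409 bases away, was counted in 26 libraries, at 105 ± 74.6 CPM in the pRPE and 31.1 ± 27.1 CPM in the ventral OS, and had r = -0.0162 with Cdh6. Cdh9, the nearest protein-coding gene on the other side at 3555080 bases, was at 0 in every ventral OS library and had r = -0.207.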

How the data were processed

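The 30 control libraries covered 10 regions with 2 to 4 libraries each. Reads were aligned by the authors with HISAT2 to GRCm38 and quantified with StringTie. The table they deposited holds estimated counts by gene symbol without normalization, and the counting program and annotation release are not given in the sources used here. The 270 values in 63 genes that were not whole were rounded, none of them for Cdh6. Of the symbols, 89.6% matched GENCODE M21 or RefSeq GRCm38.p6.

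Groups, batch and library number were taken from the labels. Genes with more than 10 counts in at least 3 libraries (8337) entered the tests (edgeR 4.0.16 under R 4.3.3, TMM, quasi-likelihood, all libraries, batch, tissue, side and position) for the adhesion genes only. CPM used the TMM-adjusted library size and log2 values a pseudocount of 1. DESeq2 1.42.0, other filters, TMMwsp, the library block, detected genes as a covariate, counts without mitochondrial genes, other scales and each library left out were alternatives. limma was added after seeing the data. When the scripts were tested on a simulated set of sparse counts, edgeR called unchanged genes above its nominal rate, so its calls are given beside those of limma. Descriptions used python 3.11.15, numpy 2.4.6, pandas 2.3.3 and scipy 1.17.1.

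Cdh6 and all gene lists were chosen with earlier results of these data known. Named were Cdh6, list members, the 5 genes most like it by Pearson r, and its annotated neighbours.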

Additional observations from a re-analysis of the deposited data

Results flagged for a closer look

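In 8 groups of 4 to 10 libraries, the lowest or highest Cdh6 level on the log2(CPM + 1) scale lay far from the others in 5 cases, which came from 3 libraries. The nominal chance rate of about 5% of groups was not computed for levels with zeros, so the number of cases is not set against it. Several of these groups share libraries. The gene was chosen by these levels and libraries without a count tie at 0, so the gaps are a description. Ventral middle OS replicate 3 was at 0, against a nearest value of 10.41 in its region (n = 4) and 7.75 in the ventral OS (n = 9). Ventral distal pRPE replicate 1 was at 0, against a nearest value of 4.99 both in its region (n = 4) and in the ventral pRPE (n = 7). Dorsal proximal pRPE replicate 3 was at 7.13, with the other 3 libraries of its region at 0. The libraries at 0 were the only ones without a count in these groups, and dorsal proximal pRPE replicate 3 was the only one with a count in its region.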

How the results depend on the processing

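Over 38 alternatives each, pRPE minus OS of Cdh6 ran from -5.44 to -2.48, dorsal minus ventral from -3.00 to -0.81 and distal minus proximal from -0.53 to 0.85. Leaving out single libraries, pRPE minus OS ran from -4.42 to -3.52, dorsal minus ventral from -2.29 to -1.38 and distal minus proximal from -0.31 to 0.85, so the last had no settled sign. Of the 5 genes most like Cdh6, 2 remained by Spearman's rho and 1 with detected genes and batch removed.

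The tests of other genes depended strongly on the settings, and the cause was not tested. Between pRPE and OS, edgeR called 3 genes of 8337, DESeq2 1244, limma 59, edgeR without a filter 45, with TMMwsp 0, with the library block 0 and with detected genes 60; leaving out single libraries gave 0 to 3. Of the adhesion genes, DESeq2 called 5 and the fit with detected genes 1 (Pcdh10). Between the sides, edgeR called 480 genes, DESeq2 1409, limma 26, edgeR without a filter 85, with the library block 97 and with detected genes 5; single libraries gave 142 to 652. The count moved by more than 1.5 times without OS ventral distal replicate 2 (142), OS dorsal middle replicate 2 (234), OS dorsal distal replicate 3 (238), pRPE ventral distal replicate 4 (277), OS ventral proximal replicate 1 (279), pRPE dorsal proximal replicate 2 (283), pRPE ventral distal replicate 3 (283), pRPE ventral proximal replicate 3 (285), OS ventral distal replicate 1 (299) or OS ventral proximal replicate 2 (314). Of the adhesion genes, 8 were called by DESeq2, 1 by limma, 0 without a filter, 1 with the library block and 0 with detected genes; single libraries gave 3 to 7, with 3 without pRPE dorsal proximal replicate 2, OS dorsal distal replicate 1 or OS dorsal middle replicate 2. Between distal and proximal, edgeR called 0 genes, DESeq2 612, edgeR without a filter 8, and single libraries gave 0 to 2 (1 without OS dorsal proximal replicate 2, 2 without pRPE ventral proximal replicate 3). DESeq2 called 4 adhesion genes there.

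Libraries of one block showed little common deviation from their region means (103 pairs, mean r 0.016, range -0.0653 to 0.225; 108 pairs from different blocks of a batch, mean r -0.0462, range -0.562 to 0.081), so the numbers were not shown to pair them. With 2 to 4 libraries a region and 56.8% of values at 0, single regions cannot be ranked and small differences were not detectable at this depth.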
